A study of Mus musculus with 20 samples.

Results

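Interferon-stimulated and interferon regulatory genes were described across 4 sorted cell populations of the mouse, 2 from skeletal muscle and 2 from bone marrow. Members were the probe sets with a single gene symbol that starts with Ifi and a digit, Ifit, Oas, Gbp and a digit, Irgm, Ifnar or Ifngr, that is Irf with 1 digit, or that is Mx1, Mx2, Isg15, Isg20, Iigp1, Igtp, Usp18, Rsad2 or Bst2. This rule uses names only. It found 49 of the 12422 probe sets, standing for 43 genes, and 47 of them passed the filter on low values, among 10310 probe sets tested in all. The 2 members left out, Gbp2b and Ifi202b, lay at the floor of measurement on all 20 arrays. Probe sets that carry several symbols of these families were not used.

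Interferons are secreted signals that tell cells of infection. Type I interferons act through the receptor chains Ifnar1 and Ifnar2, and interferon gamma, made chiefly by T and NK cells, acts through Ifngr1 and Ifngr2. Both routes activate Stat proteins and interferon regulatory factors (Irf), which switch on a shared set of antiviral genes, and several Irf proteins also direct the development of blood cells.

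All samples came from adult mice of the inbred strain C57BL/10SnJ, and the labels give no genotype change and no treatment. The side population (SP) is a rare fraction of cells that pumps out a DNA dye, and the main population (MP) is the rest of the sort, which retains it; bone marrow SP cells are known to be rich in blood stem cells. Both populations were sorted from muscle and from bone marrow, giving 4 groups of 5 total RNA samples, each on its own array. Nothing in the labels ties the samples of a group to separate animals or sorts, so p-values here reflect no more than sample-to-sample spread, possibly of technical origin.

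Values are log2 signal after quantile normalization, which gives all arrays the same distribution. Signals under 105 were raised to that floor (log2 6.71), so a group with every array at the floor gives a lower bound of a difference. A difference was called when its adjusted p from limma lay under 0.05. Medians of the deposited arrays ranged from 318 to 612, and precision is limited by how many arrays there are. Marker genes set the tissues apart: the summed signal above the floor of 10 endothelial markers was 98600 to 188000 on muscle arrays and 3250 to 13100 on marrow arrays, and that of 10 granulocyte markers was 666 to 46600 on muscle arrays and 106000 to 449000 on marrow arrays. Of 7 satellite and myogenic cell markers, all were above the floor on every muscle MP array and 3 to 6 on muscle SP arrays. With its brightest probe set, the leukocyte gene Ptprc measured 7.58 to 11.66 in muscle and 12.84 to 14.55 in marrow, above the floor throughout. Another of its probe sets was at the floor on 7 arrays. The 3' to 5' signal ratio of GAPDH, an indirect sign of RNA quality, was higher in SP than in MP arrays. Its log2 value was 3.83 ± 0.61 against 2.66 ± 0.62 in muscle (SD, n = 5, exact two-sided permutation p = 0.0238, adjusted 0.0317 over 4 such tests). In marrow it was 3.72 ± 0.6 against 2.67 ± 0.72 (SD, n = 5, exact permutation p = 0.0397, adjusted 0.0397). The beta-actin ratio was higher in SP by 1.08 in muscle and 1.09 in marrow (exact permutation, adjusted p = 0.0317 for both). These ratios therefore moved with the SP against MP comparison in both tissues. Their part in the results was not tested beyond the alternatives given for the GAPDH ratio. In bulk samples, fewer cells of a type and less RNA per cell cannot be told apart.

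The promoters show the feature that much of this gene set is known for. The core of the interferon-stimulated response element, bound by Stat and Irf complexes, was searched as GAAA, any 2 bases and GAAA, on both strands of windows from 250 bases before to 50 bases after each start in RefSeq's GRCm38.p6 annotation. A window was at hand for 36 of the 43 member genes; there was none for Mx1, Mx2, Usp18, Iigp1, Ifi204, Ifi27 and Ifi27l2a. The motif was found in 15 of these 36 genes (41.7%), and in 3.99% of all 27025 genes with a window. The core of the gamma-activated site, TTCNNNGAA, which reads the same on both strands, was found in 13 of 36 (36.1%), and in 9.55% of all genes. Of the 27 genes with a window that were called in a comparison between 2 groups, 10 held the first motif and 10 the second. The 6 stretches shown belong to the called members with the largest differences whose first motif lies wholly before the start; they are the antiviral genes Ifit3, Isg15 and Ifit1 and the guanylate-binding GTPases Gbp2, Gbp3 and Gbp7. Each is written 5′ to 3′ on the strand of its gene, with 20 bases on either side, and the capitals mark the matches to this first motif on either strand, which overlap in Isg15 and Gbp3. A match is a match of letters only.
Ifit3, chr19:34583353-34583436, plus strand: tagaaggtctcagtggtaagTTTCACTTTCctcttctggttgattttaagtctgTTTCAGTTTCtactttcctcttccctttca
Isg15, chr4:156200855-156200916, minus strand: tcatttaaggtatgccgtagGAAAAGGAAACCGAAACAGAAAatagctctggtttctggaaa
Gbp2, chr3:142620584-142620633, plus strand: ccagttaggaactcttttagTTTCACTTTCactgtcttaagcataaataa
Ifit1, chr19:34640765-34640833, plus strand: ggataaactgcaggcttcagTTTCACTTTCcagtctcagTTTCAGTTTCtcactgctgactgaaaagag
Gbp3, chr3:142559979-142560034, plus strand: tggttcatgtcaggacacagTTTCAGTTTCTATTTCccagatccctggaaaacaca
Gbp7, chr3:142530263-142530312, plus strand: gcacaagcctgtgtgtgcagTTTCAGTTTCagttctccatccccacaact

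The members did not move as one block. The mean was highest in muscle SP for 20 of the 47 tested members (42.6%) and in bone marrow MP for 18 (38.3%); over all probe sets tested these groups held the highest mean for 18.8% and 33.1%. Bone marrow SP held the highest mean for 5 members (10.6%, against 29.4% of all) and muscle MP for 4 (8.51%, against 18.7%).

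**Figure D1:**
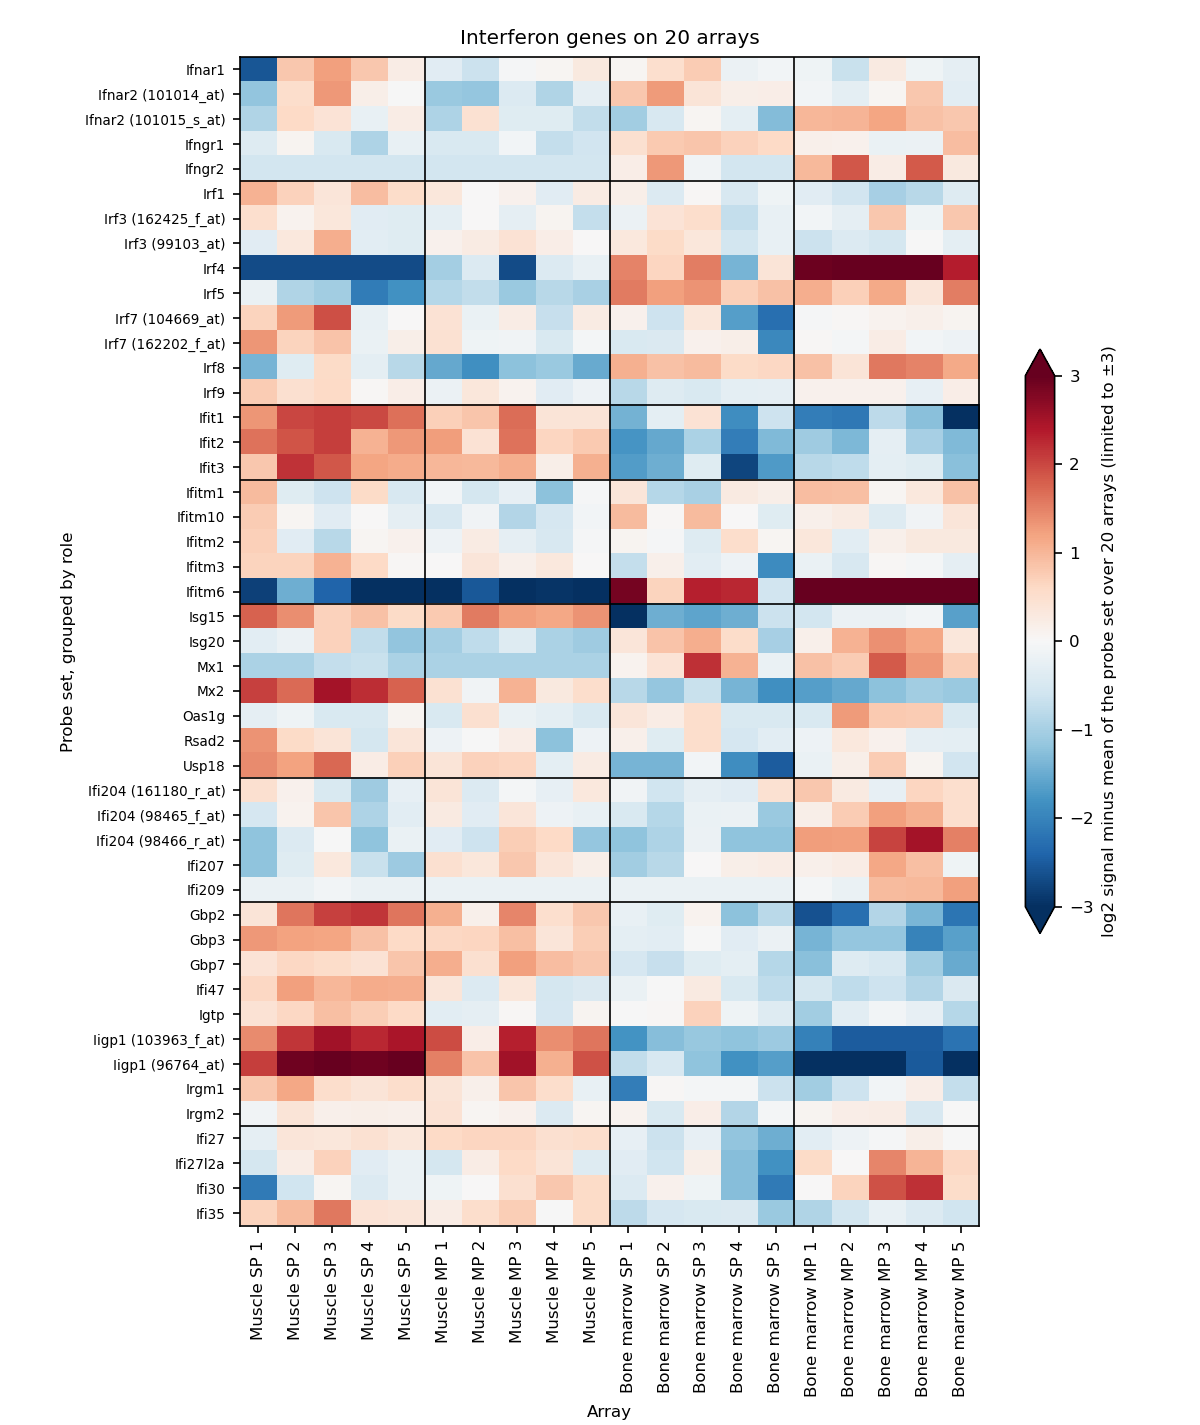
Log2 signal of the 47 tested probe sets (rows, grouped by role) on the 20 arrays (columns, 5 per group), each minus its own mean over the arrays, with colours limited to ±3. By group mean, the Ifit, Gbp, Iigp1 and Mx2 rows lie above their row mean in both muscle groups and below it in both marrow groups, and the Irf4 and Ifitm6 rows run the other way; single arrays depart from this.

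Muscle SP against muscle MP asks how the rare fraction differs from the bulk of sorted muscle cells. Mx2, Ifi47, Igtp, Iigp1 (the probe set without a suffix), Irf8 and Irf1 were higher in SP, and Irf4 and Ifi207 were lower. These 6 higher and 2 lower calls are 17% of the 47 tested members, while 11.7% of all probe sets were called either way, 5.1% higher and 6.64% lower. The median log2 difference of the members was 0.38, against 0.03 over all probe sets, and 34 of 47 were above 0, against 54.6% of all. The groups did not overlap for 5 members, against 10.1% of all probe sets. With each array left out in turn, the 6 higher calls became 4 to 8 and the 2 lower calls 0 to 2, with 0 without muscle MP replicate 4. With the replicate number as a block, 10 members were called higher.

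Bone marrow SP against bone marrow MP gave more calls, mostly the other way. Iigp1, Gbp2, Gbp3 and Ifit1 were higher in SP. Ifitm6, Ifi204, Irf4, Ifi30, Ifnar2, Ifi27l2a, Usp18, Isg15, Ifngr2, Ifit3, Ifi209, Ifi27 and Irf9 were lower. Ifi204 and Ifnar2 each had another probe set that was not called, and that of Ifnar2 averaged higher in SP. In probe sets, 5 were higher and 14 lower, 40.4% of the members against 30.2% of all probe sets; 10.6% of members were higher against 15.4% of all, and 29.8% lower against 14.8%. The median difference was -0.34, against 0.02 over all. No overlap between groups was seen for 9 members, against 20.1% of all probe sets. Scaling shifts this comparison: without further normalization the median of all probe sets was 0.31 and with median scaling -0.08, and the share of higher calls among all calls went from 50.9% to 72.2% and 32.9%. The members then split into 10 higher and 10 lower, or 5 higher and 17 lower, while their median relative to all probe sets was -0.36 as reported, -0.31 without further normalization and -0.41 with median scaling. Without bone marrow MP replicate 4, 9 members were called lower in place of 14, and without the 3 arrays of highest GAPDH ratio 8 were called higher in place of 5.

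Muscle SP against bone marrow SP gave 21 higher and 6 lower members, 57.4% of the 47 against 38.3% of all probe sets. Higher calls made up 44.7% of members and 17.1% of all probe sets, lower calls 12.8% and 21.2%. The largest differences were those of Iigp1, Mx2, Ifit2, Ifit3, Isg15, Ifit1, Usp18 and Gbp2, all higher in muscle, and of Ifitm6, Irf4 and Irf5, which were lower. The median was 0.53, against -0.11 over all, and 22 members had no overlap between groups, against 23.4% of all probe sets. Without the 3 arrays of highest GAPDH ratio, 18 members were higher and 9 lower.

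Muscle MP against bone marrow MP gave 13 higher and 13 lower members, 55.3% against 46.5% of all probe sets. Each direction held 27.7% of the members, against 20.9% of all probe sets called higher and 25.6% called lower. Iigp1, Gbp2, Ifit1, Gbp3, Ifit2, Gbp7, Mx2, Isg15 and Ifit3 were higher in muscle, and Ifitm6, Irf4, Irf8 and Mx1 led the lower members. The median of -0.05 (-0.14 over all probe sets) turned to 0.09 without further normalization. The groups did not overlap for 23 members, against 39.7% of all probe sets. All 10 muscle arrays lay above all 10 marrow arrays for 10 members (21.3%, against 7.69% of all), namely Gbp2, Gbp3, Gbp7, Ifi35, Ifit2, Ifit3, both Iigp1 probe sets, Isg15 and Mx2. They lay below them for Ifitm6, Irf5 and Mx1 (6.38%, against 5.3% of all).

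The SP minus MP difference itself was compared between tissues by an interaction term. The signed value was higher in muscle for Ifitm6, Usp18, 2 Ifi204 probe sets, 1 Ifnar2 probe set, Mx2, Ifit3, Ifi27l2a, Irf8, Ifit2 and Irf9. It was higher in marrow for Gbp3. For several of these the difference lay mainly in marrow, below 0: for Ifitm6 it was 0.12 in muscle and -2.88 in marrow, and for Ifi27l2a -0.08 and -1.5. These 11 and 1 calls are 25.5% of the members, against 18.5% of all probe sets; the share higher in muscle was 23.4% against 8.69%, and the share higher in marrow 2.13% against 9.85%. The SP minus MP difference was above 0 in muscle and below 0 in marrow for 21 of the 47 members (44.7%), as it was for 22.8% of all probe sets. The median interaction was 0.54, against 0.02 over all. Scaling shifts this comparison as well: the median of all probe sets was -0.23 without further normalization and 0.13 with median scaling, the share higher in muscle among all calls went from 46.9% to 30.4% and 62.2%, and the members split into 7 and 1, or 13 and 0. The count of 11 became 7 without muscle SP replicate 2 or without muscle MP replicate 2, and 6 without bone marrow MP replicate 3 or without replicate 4.

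**Figure D2:**
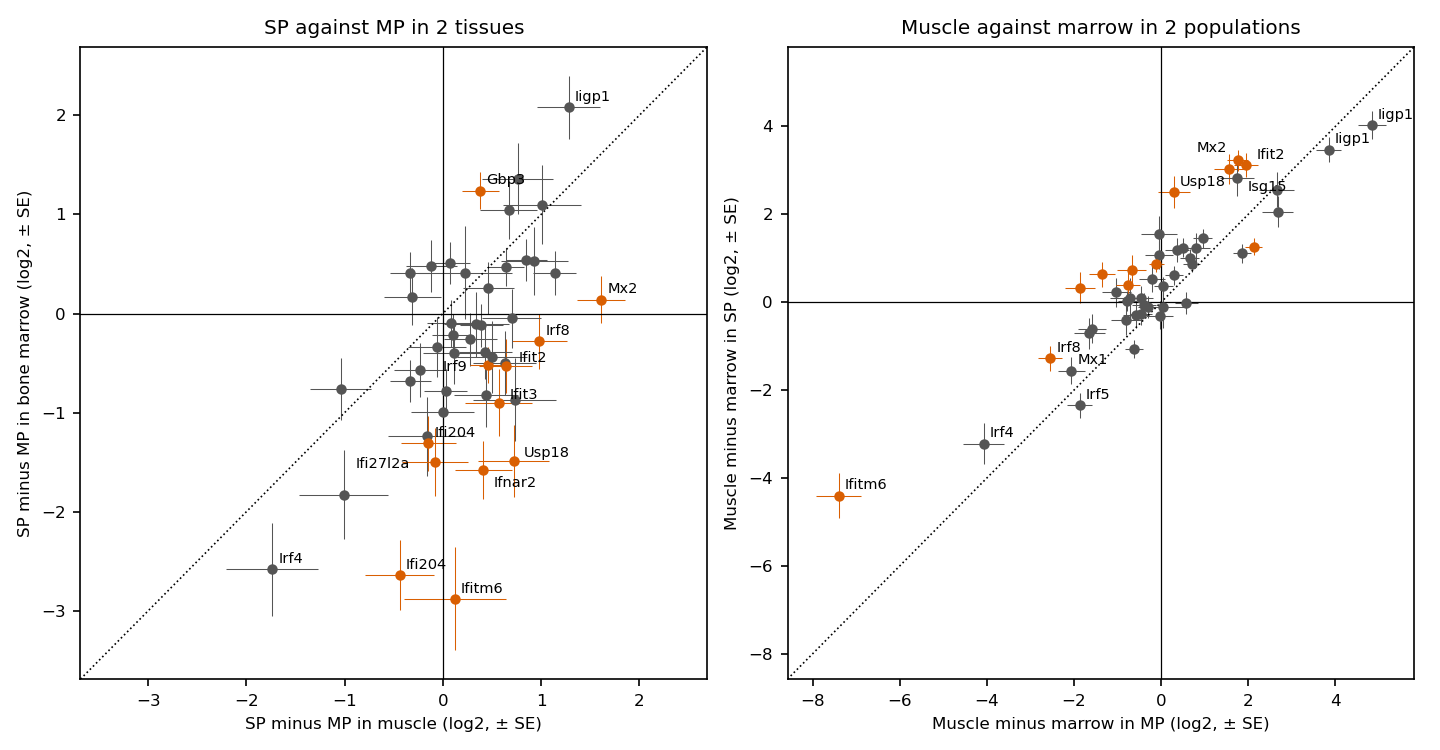
Log2 differences of the 47 tested probe sets with their standard errors; left, SP minus MP in muscle (horizontal) against bone marrow (vertical), and right, muscle minus marrow in MP against SP. Orange points were called in the interaction, the dotted line marks equal differences, and 11 of the 12 orange points in the left panel lie below it.

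None of the 5 receptor probe sets was called between SP and MP in muscle, where their differences reached 0.93 (Ifnar2, adjusted p = 0.085). Ifngr1, the ligand-binding chain of the interferon gamma receptor, was lower in muscle. It measured 10.47, 10.94, 10.41, 9.93 and 10.64 on the muscle SP arrays 1 to 5 and 10.41, 10.42, 10.79, 10.15 and 10.29 in muscle MP. In bone marrow it measured 11.35, 11.64, 11.7, 11.55 and 11.47 in SP and 11.01, 10.99, 10.67, 10.7 and 11.78 in MP. All marrow SP arrays lay above all muscle SP arrays, while the MP groups overlapped. The difference was -1.06 ± 0.21 in SP (log2 ± SE, n = 5 per group, adjusted p = 0.000301) and -0.62 ± 0.21 in MP (adjusted p = 0.0203); the MP call was lost without bone marrow MP replicate 5 (-0.43, adjusted p = 0.081), without muscle MP replicate 4 (-0.55, 0.056) and without further normalization (-0.51, 0.0669).

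Ifngr2, the signalling chain of that receptor, was at the floor on all 10 muscle arrays. In bone marrow SP it measured 7.46, 8.55, 7.15, 6.71 and 6.71, and in bone marrow MP 8.24, 9.13, 7.49, 9.1 and 7.55. It was at least 3.01-fold higher in marrow MP than in muscle MP (adjusted p = 0.000274). The marrow groups overlapped, and SP was lower by a log2 difference of -0.99 ± 0.32 (adjusted p = 0.0232), a call that was lost under 8 of 20 alternatives, with adjusted p from 0.00164 to 0.279.

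Ifnar1, a chain of the type I receptor, was called in no comparison. Its values were 6.71, 10.08, 10.5, 10.08 and 9.49 in muscle SP, 8.94, 8.62, 9.23, 9.34 and 9.56 in muscle MP, 9.34, 9.78, 10.04, 9.1 and 9.19 in marrow SP, and 9.15, 8.6, 9.53, 9.15 and 9 in marrow MP. Muscle SP 1, the array with the highest GAPDH ratio of its group (4.79), was at the floor and stood apart from the rest.

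Ifnar2, the other type I chain, had 2 probe sets that disagreed in part. The probe set with the suffix s, which marks probes that can also match related sequences, measured 9.61, 11.11, 10.92, 10.28 and 10.74 in muscle SP and 9.59, 10.97, 10.15, 10.14 and 9.77 in muscle MP. It measured 9.48, 10.03, 10.58, 10.23 and 9.2 in marrow SP and 11.51, 11.54, 11.7, 11.38 and 11.31 in marrow MP, so that marrow MP stood above the 3 other groups with no overlap. SP was lower than MP in marrow by -1.58 ± 0.29 (adjusted p = 0.000242). The probe set without a suffix measured 10.18, 11.89, 12.66, 11.52 and 11.34 in muscle SP, 10.25, 10.19, 10.95, 10.45 and 11.09 in muscle MP, 12.15, 12.64, 11.73, 11.53 and 11.55 in marrow SP, and 11.28, 11.05, 11.41, 12.15 and 11.03 in marrow MP. Its groups overlapped, and its marrow difference had the opposite sign, 0.53 ± 0.34 (adjusted p = 0.273). No direction can be given for the gene within marrow or between the SP groups. Both probe sets averaged lower in muscle MP than in marrow MP. The means were 10.13 against 11.49 with the suffix, which was called, and 10.58 against 11.39 without it, which was not. Both averaged higher in muscle SP than in muscle MP, where neither was called.

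Among the interferon regulatory factors, Irf4 and Irf8, which direct lymphoid and myeloid development, and Irf5, which acts downstream of Toll-like receptors, were lower in muscle. Irf4 was at the floor on all 5 muscle SP arrays and measured 8.38, 8.99, 6.71, 8.99 and 9.17 in muscle MP. It measured 10.9, 10.04, 10.94, 8.01 and 9.79 in marrow SP and 12.35, 12.47, 12.49, 13.55 and 11.75 in marrow MP. Marrow MP stood above all other arrays, and in both tissues SP was lower than MP, with 1 muscle MP array also at the floor. SP was lower by at least 3.33-fold in muscle (adjusted p = 0.0185) and by -2.58 ± 0.47 in marrow (6-fold, adjusted p = 0.000224). Muscle was lower than marrow by at least 9.34-fold in SP (adjusted p = 8.06e-06; 3.84-fold and 19.4-fold with the floor at the 40th and 10th percentile, 15.7-fold without the 3 arrays of highest GAPDH ratio) and by -4.07 ± 0.47 in MP (16.8-fold, adjusted p = 1.95e-07). The muscle SP call rests on dim values: it was lost with the floor at the 40th percentile (1.64-fold, adjusted p = 0.278), with the GAPDH ratio as a covariate (0.121), and without muscle MP replicate 2 (0.0519), 4 (0.054) or 5 (0.0527), while a floor at the 10th percentile gave 6.32-fold. In marrow, the difference without the 3 arrays of highest GAPDH ratio was 3.74-fold. The summed signal of 8 B lineage markers was also highest in marrow MP, at 19900 to 37300 against 1780 to 4920 in marrow SP, 2530 to 3600 in muscle MP and 1500 to 2450 in muscle SP, with 6 to 8 of the 8 above the floor on every array. Among them Ebf1 had means of 10.03 in muscle SP, 9.07 in muscle MP, 6.8 in marrow SP and 8.17 in marrow MP. It ran opposite to Irf4 between tissues and within muscle, and the same way as Irf4 within marrow. Their part in the result was not tested.

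Irf8 measured 9.6, 10.64, 11.57, 10.72 and 10.17 in muscle SP and 9.46, 9.16, 9.77, 9.88 and 9.5 in muscle MP. In marrow it measured 12.07, 11.87, 11.95, 11.57 and 11.62 in SP and 11.89, 11.39, 12.58, 12.49 and 12.15 in MP. Muscle SP 3 was highest of the muscle arrays and muscle SP 1 lay within the MP range, so the muscle groups overlapped. SP was higher in muscle by 0.98 ± 0.28 (1.98-fold, adjusted p = 0.0243), a call that was lost without muscle SP replicate 3 (0.73, adjusted p = 0.0775) or 4 (0.0527), without muscle MP replicate 1 (0.0505) or 2 (0.0688), and in a fit of these groups alone (0.0859). With its brightest probe set, the leukocyte gene Ptprc measured 10.2, 10.7, 11.66, 7.58 and 8.59 in muscle SP and 8.65 to 9.19 in muscle MP. The summed signal of 12 T and NK cell markers was 17000, 29000, 53200, 3410 and 2990 in muscle SP and 126 to 440 in muscle MP. On muscle SP 4 and 5 the brightest Ptprc probe set lay below every muscle MP array, while Irf8 and the T and NK sum lay above all of them. Another Ptprc probe set measured 6.71, 7.87, 8.55, 6.71 and 7.38 in muscle SP and was at the floor on all muscle MP arrays. The T cell receptor complex genes Cd3e and Cd3g stayed at the floor throughout muscle, while Cd3d measured 6.97, 7.66 and 8.9 on muscle SP 1 to 3 and was at the floor on the other muscle arrays. Monocyte and macrophage markers ran the other way, with summed signals of 3580 to 14000 in muscle SP and 24600 to 32300 in muscle MP. The part of these cells in the result was not tested. Between tissues, Irf8 was lower in muscle by -1.28 ± 0.28 in SP (adjusted p = 0.000844) and -2.55 ± 0.28 in MP (adjusted p = 8.73e-08).

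Irf5 was lower in muscle by -2.35 ± 0.29 in SP (5.11-fold, adjusted p = 5.03e-07) and -1.87 ± 0.29 in MP (3.66-fold, adjusted p = 9e-06), with all muscle arrays at 7.45 to 9.34 and all marrow arrays at 9.9 to 11.1. Irf1, an activator induced by interferon gamma, was higher in muscle SP than in muscle MP by 0.64 ± 0.19 (14.77 ± 0.27 against 14.13 ± 0.27, SD, n = 5, adjusted p = 0.0321), with no overlap. That call was lost under 8 of 21 alternatives, with adjusted p up to 0.212. Irf9, part of the complex that reads the response element, was lower in marrow SP than in marrow MP by -0.52 ± 0.18 (adjusted p = 0.0322, lost under 6 of 21 alternatives, 2.25-fold with median scaling). Its interaction of 0.98 ± 0.25 (adjusted p = 0.00849) was kept under all 30 alternatives run, reaching 1.57 with median scaling. Irf7, which amplifies type I interferon production, was higher in muscle SP than in marrow SP with both probe sets, 1.55 ± 0.42 (adjusted p = 0.00531) and 1.08 ± 0.32 (adjusted p = 0.01); without the 3 arrays of highest GAPDH ratio these values were 0.81 (0.115) and 0.64 (0.0532). Irf3, which starts the type I response, was called in no comparison with either of its probe sets.

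The Ifit genes encode proteins that bind foreign RNA, and all 3 were higher in muscle in both populations. Ifit1 measured 11.52, 12.21, 12.28, 12.19 and 11.86 in muscle SP and 10.92, 11.04, 11.88, 10.58 and 10.58 in muscle MP. In marrow it measured 8.79, 9.9, 10.64, 8.35 and 9.58 in SP and 8.13, 8.06, 9.42, 8.95 and 7.18 in MP. Muscle lay above marrow with no overlap within each population, by 2.56 ± 0.4 in SP (5.89-fold, adjusted p = 1.63e-05) and 2.65 ± 0.4 in MP (6.29-fold, adjusted p = 7.3e-06). Within marrow the groups overlapped; SP was higher by 1.1 ± 0.4 (adjusted p = 0.0393), lost under 9 of 21 alternatives, with adjusted p up to 0.151.

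Ifit2 measured 11.28, 11.55, 11.72, 10.71 and 10.95 in muscle SP, 10.9, 10.09, 11.29, 10.29 and 10.44 in muscle MP, 7.88, 8.13, 8.71, 7.57 and 8.34 in marrow SP, and 8.58, 8.3, 9.39, 8.67 and 8.32 in marrow MP. Every muscle array lay above every marrow array, by 3.12 ± 0.27 in SP (8.68-fold, adjusted p = 2.63e-09) and 1.95 ± 0.27 in MP (3.85-fold, adjusted p = 2.53e-06). Ifit3 gave 3.03 ± 0.34 (8.16-fold, adjusted p = 1.35e-07) and 1.56 ± 0.34 (2.95-fold, adjusted p = 0.000529). The interaction, 1.17 ± 0.38 for Ifit2 (adjusted p = 0.0352) and 1.47 ± 0.48 for Ifit3 (adjusted p = 0.0337), was lost under 15 and 11 of 30 alternatives, with adjusted p up to 0.29 and 0.153. Within marrow, Ifit3 was lower in SP by -0.9 ± 0.34 (adjusted p = 0.0476), and 15 of 21 alternatives lost this call.

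Ifitm6 gave the largest difference of the whole set. It belongs to a family of small membrane proteins, some of which block virus entry. It measured 8.03, 9.36, 8.41, 6.75 and 7.12 in muscle SP and 7.73, 8.28, 7.68, 7.89 and 7.47 in muscle MP, against 13.69, 11.49, 13.16, 13.09 and 10.25 in marrow SP and 15.37, 14.69, 15.52, 15.71 and 14.78 in marrow MP. Marrow MP stood above all other arrays, marrow SP spread widely, and the muscle groups overlapped. Muscle was lower by -4.4 ± 0.52 in SP (21.1-fold, adjusted p = 3.1e-07) and -7.4 ± 0.52 in MP (169-fold, adjusted p = 4.15e-11), and marrow SP was lower than marrow MP by -2.88 ± 0.52 (7.35-fold, adjusted p = 0.000174). The interaction was 3 ± 0.73 (adjusted p = 0.00546). The summed signal of 10 granulocyte markers was 399000 to 449000 in marrow MP and 263000, 202000, 265000, 217000 and 106000 in marrow SP. In muscle SP it was highest on array 2 (46600), where Ifitm6 was highest, and lowest on arrays 4 and 5 (1100 and 666). Between the muscle groups the levels parted. The median sum was 13700 in muscle SP and 1450 in muscle MP, while Ifitm6 averaged 7.93 and 7.81. The part of these cells in the result was not tested.

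The other Ifitm genes gave fewer calls. Ifitm3, a blocker of virus entry, was higher in muscle SP than in marrow SP by 1.18 ± 0.27 (adjusted p = 0.00138), and Ifitm1 was lower in muscle MP than in marrow MP by -1.03 ± 0.33 (adjusted p = 0.0139). Ifitm2 and Ifitm10 were called in no comparison.

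**Figure D3:**
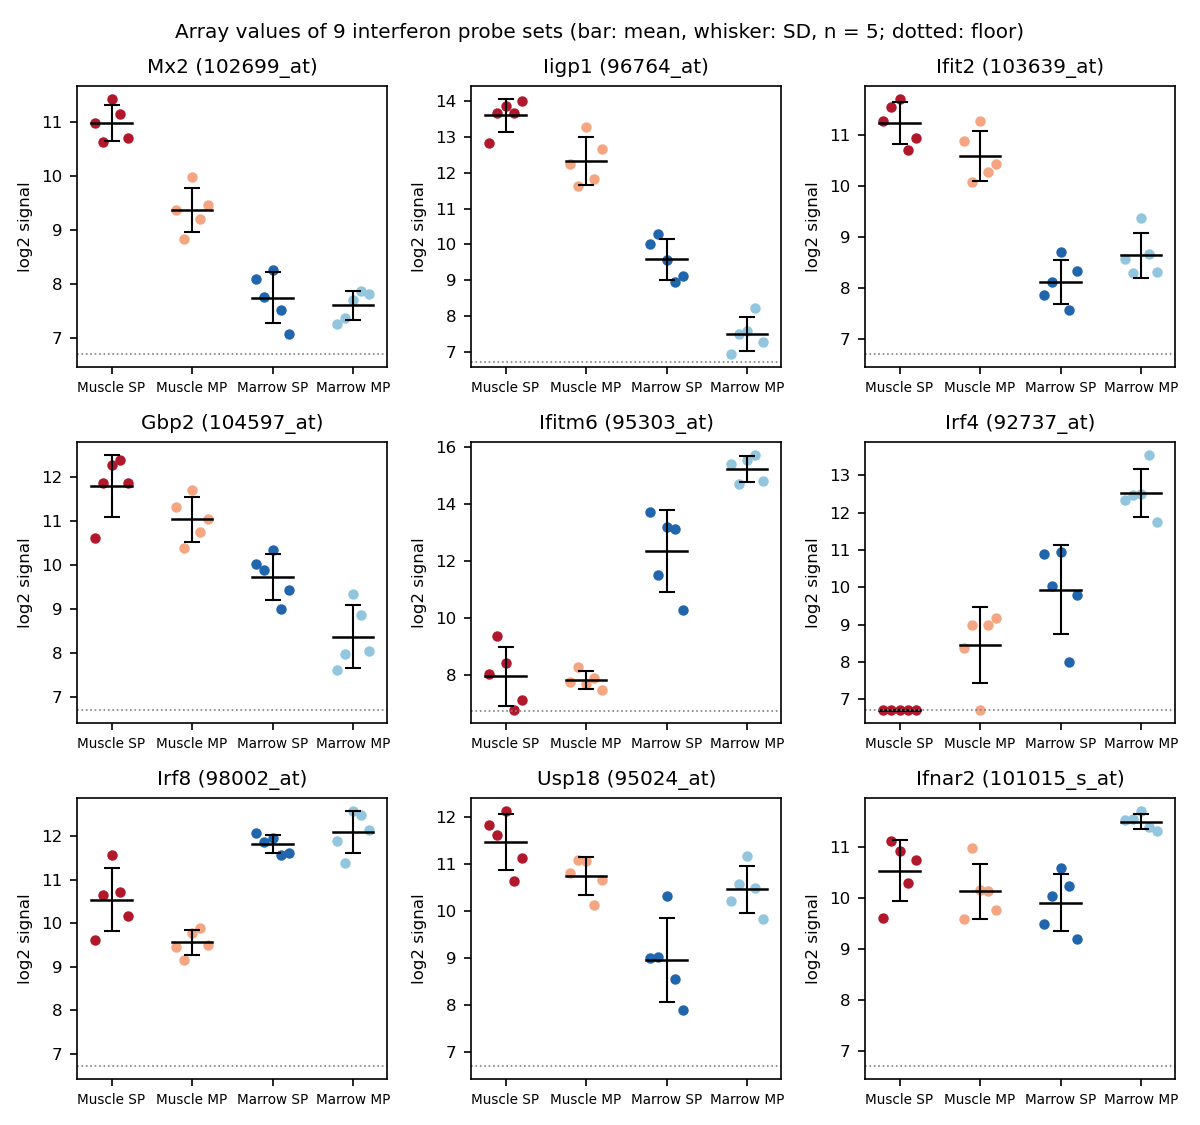
Log2 signal of 9 member probe sets on every array (points, 5 per group), with the group mean (bar), SD (whisker) and the floor (dotted line). Mx2, Iigp1, Ifit2 and Gbp2 lie higher in the muscle groups, Ifitm6, Irf4 and Irf8 higher in the marrow groups, Usp18 lowest in marrow SP, and the Ifnar2 probe set with the suffix s highest in marrow MP, unlike the other Ifnar2 probe set.

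Mx2, a dynamin-like antiviral GTPase, set muscle SP apart from the 3 other groups. It measured 10.98, 10.62, 11.42, 11.14 and 10.7 in muscle SP, 9.37, 8.83, 9.97, 9.21 and 9.46 in muscle MP, 8.1, 7.77, 8.26, 7.53 and 7.08 in marrow SP, and 7.27, 7.38, 7.7, 7.88 and 7.82 in marrow MP. All muscle SP arrays lay above all muscle MP arrays, these lay above all marrow arrays, and the marrow groups overlapped. SP was higher than MP in muscle by 1.61 ± 0.24 (3.05-fold, adjusted p = 7.93e-05) and differed by 0.14 ± 0.24 in marrow (adjusted p = 0.732). The interaction was 1.47 ± 0.34 (adjusted p = 0.0034), and 0.91 without further normalization (adjusted p = 0.102). The related Mx1 went the other way between tissues: it was at the floor on all 5 muscle MP arrays and at 6.71 to 6.99 in muscle SP, and measured 7.47 to 9.86 in marrow SP and 8.4 to 9.51 in marrow MP. It was at least 4.17-fold lower in muscle MP than in marrow MP (adjusted p = 8.91e-06) and 2.94-fold lower in muscle SP than in marrow SP (-1.56 ± 0.31, adjusted p = 0.000337). With the floor at the 40th percentile these became 1.71-fold and 1.45-fold, and the second was no longer called (adjusted p = 0.127).

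Isg15, a ubiquitin-like modifier, and Usp18, the protease that removes it and dampens type I signalling, were lower in marrow SP than in marrow MP, by -1.24 ± 0.4 (adjusted p = 0.0218) and -1.49 ± 0.36 (adjusted p = 0.00263). Usp18 averaged 11.47 ± 0.6 in muscle SP, 10.75 ± 0.39 in muscle MP, 8.96 ± 0.89 in marrow SP and 10.46 ± 0.49 in marrow MP (SD, n = 5). Muscle exceeded marrow by 2.5 ± 0.36 in SP (5.68-fold, adjusted p = 5.17e-06), and the MP groups, which overlapped, differed by 0.29 ± 0.36 (adjusted p = 0.542). The Usp18 interaction of 2.22 ± 0.51 (adjusted p = 0.00333) stayed called under all 30 alternatives run. Isg15 was higher in muscle by 2.82 ± 0.4 in SP (7.05-fold, adjusted p = 4.71e-06) and 1.74 ± 0.4 in MP (3.33-fold, adjusted p = 0.000993). Its marrow call was lost without bone marrow SP replicate 1, the array at the floor (-0.78, adjusted p = 0.0597), and under 5 more alternatives. Isg20, an RNA-degrading nuclease, was lower in muscle MP than in marrow MP by -1.65 ± 0.36 (adjusted p = 0.000524). Rsad2, the antiviral enzyme viperin, and Oas1g, of the family that senses double-stranded RNA, were called in no comparison.

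The interferon-inducible GTPases that attack vacuoles holding microbes were taken as the Gbp, Irgm, Iigp1, Igtp and Ifi47 genes. Mx1 and Mx2 were grouped with the antiviral genes above and are not counted here. The GTPases so taken had 9 tested probe sets without counting Gbp2b, which was at the floor throughout. None was called lower in any of the comparisons between 2 groups: 3 were higher in muscle SP than in muscle MP, 4 in marrow SP than in marrow MP, 8 in muscle SP than in marrow SP and 5 in muscle MP than in marrow MP. Over all probe sets, 5.1%, 15.4%, 17.1% and 20.9% were called higher in these comparisons, and 6.64%, 14.8%, 21.2% and 25.6% lower. Iigp1 gave the largest of these differences. Its probe set without a suffix measured 12.83, 13.67, 13.88, 13.67 and 14.01 in muscle SP, 12.26, 11.62, 13.28, 11.82 and 12.66 in muscle MP, 10.02, 10.28, 9.55, 8.95 and 9.11 in marrow SP, and 6.93, 7.49, 7.58, 8.23 and 7.28 in marrow MP. The order was muscle SP, muscle MP, marrow SP, marrow MP, and only the muscle groups overlapped. SP was higher by 1.28 ± 0.32 in muscle (2.43-fold, adjusted p = 0.0103) and 2.08 ± 0.32 in marrow (4.23-fold, adjusted p = 3.25e-05); with the GAPDH ratio as a covariate these became 4.36-fold and 7.18-fold. Muscle was higher by 4.03 ± 0.32 in SP (16.3-fold, adjusted p = 6.56e-10) and 4.83 ± 0.32 in MP (28.4-fold, adjusted p = 1.82e-11; 18.2-fold with a pseudocount in place of the floor).

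The other Iigp1 probe set, with the suffix f for possible matches to related genes, measured 10.62, 11.35, 11.73, 11.46 and 11.65 in muscle SP, 11.15, 9.4, 11.54, 10.59 and 10.81 in muscle MP, 7.4, 7.92, 8.07, 7.99 and 8.11 in marrow SP, and 7.18, 6.71, 6.71, 6.71 and 6.98 in marrow MP. Between tissues it ran the same way. Muscle was higher by 3.47 ± 0.29 in SP (11-fold, adjusted p = 1.92e-09) and 3.84 ± 0.29 in MP (14.3-fold, adjusted p = 2.11e-10). The MP difference was 6.51-fold with the floor at the 40th percentile. Within muscle this probe set was not called and the groups overlapped, with means of 11.36 in SP and 10.7 in MP. Marrow SP was higher than marrow MP by 1.04 ± 0.29 (adjusted p = 0.00965), a call that the floor at the 40th percentile removed (0.04, adjusted p = 0.969).

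Gbp2 measured 10.62, 11.85, 12.28, 12.39 and 11.85 in muscle SP, 11.31, 10.39, 11.71, 10.75 and 11.04 in muscle MP, 10.02, 9.88, 10.34, 9.01 and 9.44 in marrow SP, and 7.63, 7.98, 9.35, 8.87 and 8.05 in marrow MP. Muscle lay above marrow without overlap, by 2.06 ± 0.36 in SP (adjusted p = 6.17e-05) and 2.67 ± 0.36 in MP (6.35-fold, adjusted p = 1.46e-06), and marrow SP exceeded marrow MP by 1.36 ± 0.36 (2.58-fold, adjusted p = 0.00528; 4.09-fold with the GAPDH ratio as a covariate). Gbp3 averaged 14.14 ± 0.29, 13.76 ± 0.2, 12.88 ± 0.13 and 11.64 ± 0.36 in the same order of groups (SD, n = 5). It was the 1 member whose SP minus MP difference was called higher in marrow: 1.24 ± 0.19 (adjusted p = 2.26e-05) against 0.38 ± 0.19 in muscle (adjusted p = 0.217), an interaction of -0.87 ± 0.26 (adjusted p = 0.0233) that was -0.29 with median scaling (adjusted p = 0.562). Gbp7 was higher in muscle by 1.11 ± 0.21 in SP (adjusted p = 0.000185) and 1.85 ± 0.21 in MP (adjusted p = 1.37e-07).

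Ifi47, an immunity-related GTPase, measured 10.95, 11.56, 11.32, 11.45 and 11.41 in muscle SP and 10.7, 9.92, 10.68, 9.8 and 9.89 in muscle MP. It measured 10.13, 10.33, 10.6, 9.88 and 9.56 in marrow SP and 9.81, 9.58, 9.72, 9.45 and 9.89 in marrow MP. Muscle SP lay above all other arrays, by 1.14 ± 0.22 over muscle MP (2.2-fold, adjusted p = 0.00113) and 1.24 ± 0.22 over marrow SP (2.36-fold, adjusted p = 7.33e-05). Igtp, of the same family, was higher in muscle SP than in muscle MP by 0.85 ± 0.21 without overlap (1.81-fold, adjusted p = 0.0103), and higher than in marrow SP by 0.61 ± 0.21 (adjusted p = 0.0266), which 6 of 21 alternatives lost. Irgm1 was higher in muscle SP than in marrow SP by 1.24 ± 0.33 (adjusted p = 0.00452). Irgm2 was called in no comparison. Mx2, Ifi47, Igtp and Iigp1 kept their muscle SP calls under all 21 alternatives run. The summed signal of the endothelial markers was also higher in muscle SP than in muscle MP, 155000 to 188000 against 98600 to 120000. Among them Kdr alone had a lower mean in muscle SP (14.45 against 14.7), and Cdh5 hardly differed (14.49 against 14.44). The part of endothelial cells in the result was not tested. Ifi47 and Igtp averaged 10.2 and 10.32 in muscle MP and 10.1 and 10.56 in marrow SP. Mx2 and Iigp1 (the probe set without a suffix) averaged 9.37 and 12.33 in muscle MP and 7.75 and 9.58 in marrow SP. The endothelial sum in marrow SP was 6460 to 13100.

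Of the 5 tested probe sets of p200 genes, a family that includes sensors of DNA, 3 were lower in marrow SP than in marrow MP, where 14.8% of all probe sets were. Ifi204 is read by 3 probe sets, a pair with the suffix r and another with the suffix f, which marks possible matches to related genes. The first of the pair with the suffix r measured 6.71, 7.49, 7.9, 6.71 and 7.7 in muscle SP, 7.56, 7.29, 8.64, 8.51 and 6.74 in muscle MP, 6.71, 6.99, 7.72, 6.71 and 6.71 in marrow SP, and 9.15, 9.14, 9.93, 10.41 and 9.42 in marrow MP. Marrow MP stood above all other arrays, by 2.64 over marrow SP (-2.64 ± 0.35 for SP minus MP, adjusted p = 5.11e-06), a 6.23-fold difference that was 3.06-fold with the floor at the 40th percentile and 3.91-fold with a pseudocount. The probe set with the suffix f gave -1.31 ± 0.28 (adjusted p = 0.0011), and the other with the suffix r gave -0.57 ± 0.27 (adjusted p = 0.118). Ifi209 was at the floor on all marrow SP arrays and measured 6.71 to 8.14 in marrow MP, at least 1.72-fold higher (adjusted p = 0.00804). That call was lost with the GAPDH ratio as a covariate (0.0903) and in a fit of the marrow groups alone (0.0661), and the floor at the 10th percentile gave 5.29-fold.

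Ifi207 was lower in muscle SP than in muscle MP. Its probe set, also of the kind that can match relatives, measured 7.75, 8.59, 9.27, 8.28 and 7.86 in muscle SP and 9.43, 9.3, 9.76, 9.32 and 9.12 in muscle MP, with only muscle SP 3 inside the MP range. In marrow it measured 7.92, 8.13, 8.96, 9.12 and 9.17 in SP and 9.11, 9.18, 10.12, 9.85 and 8.83 in MP, and those groups overlapped. The muscle difference was -1.04 ± 0.31 (2.05-fold, adjusted p = 0.0288), lost under 9 of 21 alternatives with adjusted p up to 0.115.

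Ifi30, a lysosomal thiol reductase of antigen-presenting cells, measured 6.71, 8.22, 8.87, 8.4 and 8.61 in muscle SP, 8.69, 8.82, 9.3, 9.64 and 9.4 in muscle MP, 8.4, 8.94, 8.7, 7.55 and 6.71 in marrow SP, and 8.84, 9.49, 10.73, 11.02 and 9.36 in marrow MP. Marrow SP 2 lay just inside the marrow MP range. SP was lower than MP in marrow by -1.83 ± 0.45 (3.55-fold, adjusted p = 0.0036), which became 1.77-fold with the GAPDH ratio as a covariate (adjusted p = 0.123) and 2.34-fold without the 3 arrays of highest ratio. The summed signal of 10 monocyte and macrophage markers was higher in marrow MP (125000 to 141000) than in marrow SP (24300 to 77600). Ifi30 and Ifi204 also averaged higher in marrow MP. Among the markers Mrc1, C1qa and C1qb (its brighter probe set) hardly differed. Their means were 7.01, 6.92 and 9.2 in marrow SP and 6.91, 6.85 and 9.06 in marrow MP. The part of these cells in the results was not tested. Ifi27 and Ifi27l2a, genes of small mitochondrial proteins whose loci overlap in RefSeq, were lower in marrow SP than in marrow MP by -0.68 ± 0.21 (adjusted p = 0.0188) and -1.5 ± 0.34 (adjusted p = 0.00171). The Ifi27 difference was 2.41-fold with median scaling and was lost under 6 of 21 alternatives, at -0.3 without the 3 arrays of highest GAPDH ratio (adjusted p = 0.177). Ifi35, a partner of Nmi, was higher in muscle by 1.45 ± 0.22 in SP (adjusted p = 1.37e-05) and 0.95 ± 0.22 in MP (adjusted p = 0.00126).

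On some arrays most members lay to the same side of their group mean. On bone marrow SP 3, 39 of the 47 members lay above their group mean with a median deviation of 0.5, and on bone marrow SP 5, 12 of 47 did, with a median of -0.3. Bone marrow MP 3 (0.3, 38 of 47), muscle SP 3 (0.27, 32 of 47) and muscle MP 3 (0.22, 34 of 47) were also high. So were bone marrow MP 4 (0.24, 32 of 47) and muscle SP 2 (0.15, 37 of 47). Muscle MP 1, 2 and 5 had medians of -0.01, 0 and 0, with 20 to 22 of 47 above, and muscle SP 1 held the highest value of its group for 12 members and the lowest for 17. The median deviation of all probe sets lay between -0.04 and 0 on every array. The arrays numbered 3 held the highest value of their group for 22 members in marrow SP, 20 in muscle SP, 19 in muscle MP and 18 in marrow MP. The same count was not made over all probe sets, so it cannot be called particular to the members. The labels say nothing of what a replicate number stands for.

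**Figure D4:**
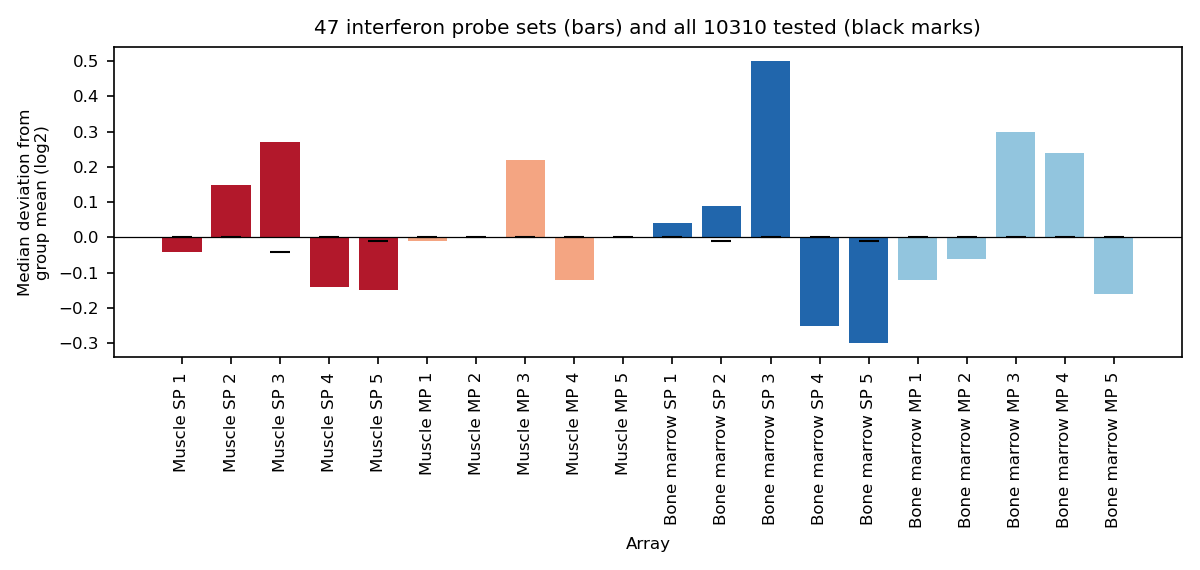
Median deviation of the 47 tested members from their group mean (bars, log2) on each of the 20 arrays, with the same median over all 10310 probe sets tested as black marks. Bone marrow SP 3 is highest at 0.5 and bone marrow SP 5 lowest at -0.3, while the black marks stay between -0.04 and 0.

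The wider interferon pathway was read from a list of 67 other genes, chosen with earlier results of these data known, of which 50 had a probe set with a single symbol and 48 were tested with 62 probe sets. In the same order of comparisons, 10 probe sets were higher and 2 lower, 9 and 11, 17 and 5, 11 and 15, and 10 and 1 for the interaction. The share called was 19.4%, 32.3%, 35.5%, 41.9% and 17.7%, against 11.7%, 30.2%, 38.3%, 46.5% and 18.5% of all probe sets. Ifng, the interferon gamma gene itself, was higher in SP in both tissues. It measured 8.88, 10.11, 9.89, 8.4 and 8.75 in muscle SP and was at the floor on all muscle MP arrays, at least 5.63-fold lower (adjusted p = 9.05e-05). In marrow it measured 12.44, 12.02, 13.57, 13.48 and 13.73 in SP and 6.85, 8.51, 7.73, 7.14 and 6.71 in MP, a difference of 5.66 ± 0.37 (50.6-fold, adjusted p = 2.39e-10). No SP array overlapped an MP array in either tissue, and T and NK cell markers moved the same way, with summed signals of 45800 to 93400 in marrow SP and 3570 to 6870 in marrow MP; their part in the result was not tested.

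Cxcl9, a chemokine induced by interferon gamma, was at the floor on all 10 marrow arrays and measured 10.25 ± 0.28 in muscle SP and 11 ± 0.58 in muscle MP (SD, n = 5), at least 11.6-fold (adjusted p = 4.83e-12) and at least 19.6-fold higher (adjusted p = 1.02e-13). Socs3, an inhibitor of cytokine signalling, was higher in muscle with both probe sets, by 3.84 ± 0.17 and 3.6 ± 0.31 in SP (14.3-fold and 12.1-fold, adjusted p = 4.3e-14 and 2.73e-09). Jak2, a kinase of the interferon gamma receptor, was higher in SP than in MP with both probe sets in both tissues, by 0.68 ± 0.18 and 1.66 ± 0.31 in muscle (adjusted p = 0.0163 and 0.00104). In marrow 1 of these Jak2 probe sets gave 0.82 ± 0.18 (adjusted p = 0.00134), and the other, at the floor on all MP arrays, was at least 1.89-fold higher (adjusted p = 0.0292). Psmb8 and Tap1, which make and carry peptides for antigen display, were higher in marrow SP than in marrow MP by 0.86 ± 0.24 (adjusted p = 0.00792) and 1.15 ± 0.23 (adjusted p = 0.000585); the other Tap1 probe set, with the suffix r, gave -0.5 ± 0.32 (adjusted p = 0.269). Psme1, a proteasome activator, was also higher (0.87 ± 0.27, adjusted p = 0.0169), while Tap2 (-0.7 ± 0.27, adjusted p = 0.0532), Psmb9 (-0.08 ± 0.3, 0.891), Psmb10 (0.58 ± 0.23, 0.0657), B2m (0.04 ± 0.14, 0.891) and the 3 probe sets of Tapbp (-0.44 to 0.18, adjusted p from 0.0779 to 0.924) were not called. Tlr7, Il15, Trim30a, Myd88 and Socs1 were lower there, by -1.82 ± 0.24, -1.45 ± 0.27, -1.07 ± 0.2, -1 ± 0.23 and -0.92 ± 0.23 (adjusted p from 4.97e-06 to 0.00422).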

How the data were processed

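Total RNA of 20 samples had been hybridised to expression arrays. The authors deposited linear signal intensity per probe set, with a 2%-trimmed mean of 1501 on each array; how background was corrected, and with what software, is not given in the sources used here. Control probe sets, 66 in number, were left out. Arrays were quantile normalized, values under the 25th percentile were raised to it, log2 was taken, and probe sets above the floor on at least 5 of 20 arrays were kept. All 4 groups were fitted with limma 3.58.1 in R 4.3.3 (lmFit and eBayes), two-sided, with Benjamini-Hochberg adjustment over 10310 probe sets. The code was checked on simulated data. Figures used matplotlib 3.10.9 in Python 3.11.15.

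Members, marker lists and the pathway list were chosen with earlier results of these data known. Values on every array are given for the 6 largest called differences of each comparison between 2 groups and for the receptors. Symbols are those of the platform annotation and all matched RefSeq's GRCm38.p6. Alternatives were other normalizations, floors, filters and fits, a replicate block, a GAPDH ratio covariate and each array left out.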

Additional observations from a re-analysis of the deposited data

Results flagged for a closer look

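Of 69 groups of 5 arrays examined for members given array by array, 3 held an array far from the others. Chance alone marks about 1 group in 20, so this count is no more than chance gives. Ifi204 (the first probe set with the suffix r) measured 7.72 on bone marrow SP 3, against 6.71 to 6.99 on the other arrays of that group. Iigp1 (suffix f) measured 7.4 on bone marrow SP 1, against 7.92 to 8.11. Ifnar1 measured 6.71 on muscle SP 1, against 9.49 to 10.5.

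The interaction term showed an SP minus MP difference that was unequal between tissues for 12 probe sets. The muscle difference exceeded the marrow difference by 3 for Ifitm6, 2.22 for Usp18, 2.19 and 1.16 for the Ifi204 probe sets with the suffixes r and f, 1.99 for Ifnar2 (suffix s), 1.47 for Mx2, 1.47 for Ifit3, 1.42 for Ifi27l2a, 1.27 for Irf8, 1.17 for Ifit2 and 0.98 for Irf9, all on the log2 scale. For Gbp3 it was -0.87. Of these 12 calls, 4 were kept under all alternatives run (Ifitm6, Usp18, Ifnar2 and Irf9).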

How the results depend on the processing

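Over the 5 comparisons, the members gave 92 calls. Of these, 62 were kept under every alternative run, 30 were lost under at least 1, and 0 changed direction. The 8 muscle SP against MP calls lost 4 in this way, the 19 marrow calls 9, the 27 and 26 calls between tissues 4 and 5, and the 12 interaction calls 8. The counts moved as follows. In muscle, higher calls (6 as reported) were 10 with the replicate block, and lower calls (2) were 1 with the floor at the 40th percentile, 1 with no filter, 0 with the GAPDH ratio covariate and 1 without the 3 arrays of highest ratio, an alternative chosen after seeing the data; single arrays left out gave 4 to 8 and 0 to 2. In marrow, higher calls (5) were 10 without further normalization and 8 without those 3 arrays, and lower calls (14) were 9 in a fit of the marrow groups alone; single arrays left out gave 4 to 6 and 9 to 15. For the interaction, calls higher in muscle (11) were 7 each without further normalization, with the floor at the 10th percentile, with no filter and without those 3 arrays, and the call higher in marrow (1) became 0 with median scaling; single arrays left out gave 6 to 13 and 0 to 2, with 0 without bone marrow MP replicate 4 and 2 without bone marrow MP replicate 2. Between tissues, single arrays left out gave 20 to 23 higher and 6 to 7 lower in SP, and 13 to 15 and 10 to 13 in MP. The cause of these moves was not tested.

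The replicate numbers were not taken as pairs, since the labels do not say what they stand for: deviations of same-numbered arrays correlated from -0.141 to 0.296 across the comparisons between 2 groups, not over 0.1 in every pair, and not every array correlated best with its own number. With the replicate block, the counts were 10 higher and 2 lower in muscle, 7 and 17 in marrow, 23 and 7 for SP between tissues, 15 and 14 for MP, and 14 and 1 for the interaction. Differences near the floor of 105 signal are limited by dim signals.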
